A study of Saccharomyces cerevisiae with 48 samples.

Results

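The replication profiles of budding yeast strains that over-express 6 limiting initiation factors were compared between strains lacking different pairs of replication origins. The members are the 22 post-release samples of the *sml1∆ SSDDCS ars1008∆ ars1009∆* and *sml1∆ SSDDCS ars816∆ ars818∆* strains, chosen by strain, out of 44 post-release samples with files and 48 samples in the series. *SSDDCS* stands for Sld2, Sld3, Dpb11, Dbf4, Cdc45 and Sld7, driven in pairs by the divergent *GAL1-10* promoter from constructs at the *leu2*, *his3* and *trp1* loci. Both strains are W303 MATa cells carrying *rad5-535* and *can1-100* beside the auxotrophic alleles *ade2-1*, *ura3-1*, *trp1-1*, *his3-11, 15* and *leu2-3, 112*, and both also lack *SML1* (marked HphNT in the sample labels and HphMX in the study's strain list), the inhibitor of ribonucleotide reductase. The study's strain list gives the marker KanMX with the *ars816∆ ars818∆* deletions and no marker with *ars1008∆ ars1009∆*. Cultures were arrested in G1 with alpha factor, given galactose during the arrest and released into S-phase in galactose. Each strain gave 1 G1 sample and 11 samples, at 5, 10, 15, 20, 25, 30, 35, 40, 45, 50 and 60 min after release. With a single time course of each strain there is no replicate check and no test of any difference, and SDs are over bins or chromosomes. The *sml1∆* strains with the same deletions and no *SSDDCS* constructs, in which *SML1* is replaced by URA3, are used as a second pair, from other cultures and other G1 samples.

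Origins of replication are licensed in G1 by loading of the Mcm2-7 helicase at sites bound by the origin recognition complex, and fire in S-phase when Sld3, Sld7, Cdc45, Sld2 and Dpb11 assemble at them after phosphorylation by CDK and by DDK, the kinase activated by Dbf4. These factors are scarcer than licensed origins, so early origins use them first and late origins wait. Sites between origins are copied by forks that travel from the neighbouring origins, and the last sites copied are termination zones.

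The deleted origins ARS1009 and ARS818, and the earliest and latest origins shared by both profiles among those of at most 300 bp, are shown for the kind of sequence at the sites discussed. ARS1008, also annotated, had too few bins for a time and is not shown. The sequences are RefSeq sequences of the R64 assembly of S288C, plus strand, 5′ to 3′, with exact matches to the ARS consensus sequence (the binding site of the origin recognition complex, searched on both strands) in capitals. ARS1009 is shown as chrX:228667-228966, ARS818 as chrVIII:392180-392395, ARS1116 as chrXI:517017-517265, ARS305 as chrIII:39508-39595, ARS1126 as chrXI:196042-196287 and ARS521 as chrV:520772-521030.
ARS1009: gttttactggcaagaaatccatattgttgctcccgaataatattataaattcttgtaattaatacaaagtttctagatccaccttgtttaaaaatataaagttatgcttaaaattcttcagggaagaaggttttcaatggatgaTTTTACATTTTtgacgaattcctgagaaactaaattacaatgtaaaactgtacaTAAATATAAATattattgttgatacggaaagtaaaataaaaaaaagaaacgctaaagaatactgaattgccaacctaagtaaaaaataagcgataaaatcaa
ARS818: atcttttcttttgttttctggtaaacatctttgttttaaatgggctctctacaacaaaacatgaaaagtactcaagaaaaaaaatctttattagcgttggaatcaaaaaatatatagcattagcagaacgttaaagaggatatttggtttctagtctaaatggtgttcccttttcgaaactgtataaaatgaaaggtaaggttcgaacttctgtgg
ARS1116: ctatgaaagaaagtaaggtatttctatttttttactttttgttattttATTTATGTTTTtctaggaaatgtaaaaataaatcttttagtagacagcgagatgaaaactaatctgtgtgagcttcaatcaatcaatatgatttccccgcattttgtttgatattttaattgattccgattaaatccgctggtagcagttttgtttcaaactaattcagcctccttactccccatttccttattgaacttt
ARS305: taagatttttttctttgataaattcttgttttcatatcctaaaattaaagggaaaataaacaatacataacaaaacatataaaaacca
ARS1126: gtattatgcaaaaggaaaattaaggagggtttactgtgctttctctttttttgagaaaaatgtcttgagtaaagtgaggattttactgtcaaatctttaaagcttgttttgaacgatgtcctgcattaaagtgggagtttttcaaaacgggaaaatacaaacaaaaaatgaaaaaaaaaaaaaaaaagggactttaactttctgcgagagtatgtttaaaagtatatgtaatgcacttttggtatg
ARS521: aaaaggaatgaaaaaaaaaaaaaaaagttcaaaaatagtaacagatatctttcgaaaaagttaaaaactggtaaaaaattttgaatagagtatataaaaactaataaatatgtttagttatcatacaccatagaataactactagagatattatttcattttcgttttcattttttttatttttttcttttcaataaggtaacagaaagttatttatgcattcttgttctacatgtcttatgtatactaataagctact
The window of ARS1009 holds 2 matches and ARS1116 holds 1, and the other 4 sequences hold none of these letters. An exact match lies in 35.2% of the 352 annotated origins and in 1.49% of 50080 genome windows of 241 bp, the median length of an annotated origin. ARS1116 and ARS305 replicated at 10.6 and 11.1 min in the *ars1008∆ ars1009∆* strain and at 16.4 and 16 min in the *ars816∆ ars818∆* strain, and ARS1126 and ARS521 at 17.5 and 18.5 min against 23.6 and 24.3 min. These times are *T*_rep_, the time after release at which a logistic curve through the ratios of a 1-kb bin reaches 1.5, averaged over the 4 bins nearest the origin. At the deleted sites themselves, ARS1009 replicated at 33.3 min where it was deleted and 17.1 min where it was retained, and ARS818 at 26.7 and 13.8 min. Bins from ARS1007 to ARS1010 on chromosome X and from ARS815 to ARS820 on chromosome VIII, 332 of 11338, are left out of the comparisons from here on. Whole-genome medians and percentiles, rise times, bulk values and the median used for centring keep all bins.

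The deposited value was the ratio of reads at a timepoint to reads in G1 of the same strain, so 1 stands for unreplicated and 2 for replicated DNA, after scaling by a bulk value from flow cytometry. The 22 files held 11316 to 11328 bins and no read counts, so the depth is unknown. The noise of a bin was taken as the SD of differences between adjacent bins, divided by the square root of 2. It was 4.70% to 5.93% of the bulk value over all bins, the highest at 50 min in both strains.

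The pace of the cultures was examined first. By the deposited scaling, the *ars1008∆ ars1009∆* culture was ahead throughout the first part of S-phase. Its *T*_rep_ had a median of 16.1 min with 10th and 90th percentiles of 12.1 and 22.5 min. In the *ars816∆ ars818∆* culture the median was 20.7 min with percentiles of 17.3 and 26.3 min. The whole distribution was shifted, but by less at its late end, with *ars1008∆ ars1009∆* minus *ars816∆ ars818∆* at -5.30 min for the 5th percentile, -4.62 min for the 50th and -3.32 min for the 95th. These set percentiles and not the same bins against each other. In bins grouped by their order in the *sml1∆* strains the trend was smaller. Less the genome-wide median, the median difference was -0.181 min in the 1099 earliest bins and 0.450 min in the 1098 latest. The ratio of a single bin also took longer to rise from 1.25 to 1.75 in the *ars1008∆ ars1009∆* culture, with a median of 14.8 min against 10.5 min.

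Early and late replicating sites were then followed separately, as the 1097 earliest and 1097 latest bins in the *sml1∆* strains. In the *ars1008∆ ars1009∆* culture the early bins rose from a mean ratio of 1.34 at 10 min to 1.58 at 15 min, 1.80 at 20 min and 1.89 at 25 min. In the *ars816∆ ars818∆* culture they stood at 1.08, 1.30, 1.62 and 1.82 at these times. The late bins of the *ars1008∆ ars1009∆* culture had a mean ratio of 1.28 at 10 min, 1.41 at 15 min, 1.46 at 20 min and 1.58 at 25 min. Those of the *ars816∆ ars818∆* culture had 1.07, 1.22, 1.36 and 1.51. At 5 min the early and late sites of the *ars1008∆ ars1009∆* culture both had a ratio of 1.14. This equals the deposited bulk value to which that sample was scaled, and so does not by itself show replication of late sites. The late sites of this culture rose little between 15 and 20 min. Over that interval 38.7% of the late bins had a lower ratio at 20 than at 15 min (424 of 1097), against 9.21% (101 of 1097) in the *ars816∆ ars818∆* culture, while the deposited bulk value of the *ars1008∆ ars1009∆* culture rose from 1.48 to 1.64. In the *sml1∆* strains, on which these bins were chosen, the shares were 67.6% (741 of 1096) for *ars1008∆ ars1009∆* and 1.82% (20 of 1097) for *ars816∆ ars818∆*. Lower ratios at 20 than at 15 min were thus also seen in the *ars1008∆ ars1009∆* culture without *SSDDCS*. Choosing late bins on the *sml1∆* cultures favours low ratios there, so these shares do not compare cultures with and without *SSDDCS*.

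The quotient of early over late sites does not depend on the bulk value, and it placed the cultures closer together. It was highest at 20 min in the *ars1008∆ ars1009∆* culture, at 1.23, and at 25 min in the *ars816∆ ars818∆* culture, at 1.21. The values on either side of these maxima were 1.12 and 1.2 in the first and 1.19 and 1.14 in the second, and by 50 min the quotient was 1.00 in both. Shifting one curve along the other gave the best match with the *ars816∆ ars818∆* culture 2.3 min behind, with a range of 1.2 to 5.1 min over the 16 chromosomes (SD 0.878 min). The median difference in *T*_rep_ was -4.65 min under the deposited bulk values and -0.947 min when a factor for each timepoint was estimated from the ratios, a step that assumes logistic curves. The estimated bulk values were 1.25 at 10 min and 1.40 at 15 min in the *ars1008∆ ars1009∆* culture, below the deposited 1.30 and 1.48, and 1.18 and 1.34 in the *ars816∆ ars818∆* culture, above the deposited 1.07 and 1.25.

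**Figure D1:**
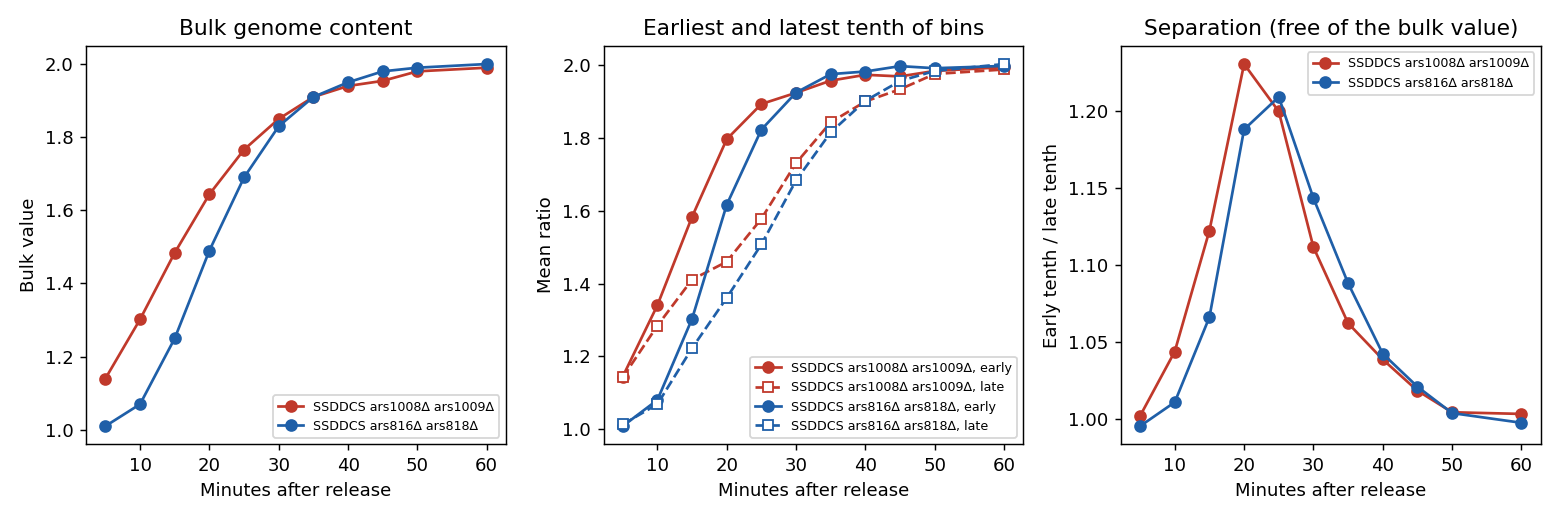
Bulk value (left), mean ratio of the 1097 earliest (filled) and 1097 latest (open) bins (middle) and their quotient (right) against minutes after release, 1 sample per point. The quotient peaks at 1.23 at 20 min in the *ars1008∆ ars1009∆* strain and at 1.21 at 25 min in the *ars816∆ ars818∆* strain.

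The profiles of single timepoints were then set against each other. Over 10966 bins, the profile of the *ars1008∆ ars1009∆* culture at 15 min correlated best with the 20 min profile of the other (Pearson r = 0.637), that at 20 min with 20 min (r = 0.768) and that at 25 min with 25 min (r = 0.745). Its profiles at 30, 35, 40 and 45 min also matched 25 min best, with r falling through 0.588, 0.417 and 0.272 to 0.167. The best matches of the remaining times were 15 min for 5 and 10 min (r = 0.0473 and 0.367), 30 min for 50 min (r = 0.146) and 35 min for 60 min (r = 0.0610). Neighbouring bins share reads of the same forks and all samples of a strain share 1 G1 sample, so these r are descriptions. They also depend on how far early and late sites differ in a sample. In the *ars816∆ ars818∆* culture the quotient of these sites was highest at 25 min (1.21) and 20 min (1.19). The best match by itself therefore does not measure pace.

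Replication order was compared next, beginning with chromosomes. Chromosome I was the earliest in both strains, with a median *T*_rep_ of 14.7 and 19.5 min, and chromosome VII the latest, at 17.1 and 21.5 min. The 14 chromosomes between them in rank spanned 0.931 min in the *ars1008∆ ars1009∆* strain, from 15.6 to 16.5 min, and 1.39 min in the *ars816∆ ars818∆* strain, from 19.7 to 21.1 min. Chromosomes III, VI and VIII followed I among the 4 earliest in both, and XIII was next to latest in both. The ranks of the 16 medians had a Spearman rho of 0.832 between the strains, and 11 chromosomes kept within 2 ranks. The largest moves were chromosome IX, ranked 11 and 5, and chromosome XV, ranked 6 and 11. Whether neighbours in this order differ could not be tested with a single time course. Without the 20 min samples rho was 0.712. Over the medians of annotated origins alone, including those in the excluded regions, it was 0.344.

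The order of chromosomes did not follow that of the strains with normal factor levels. Between the *sml1∆* strains rho was 0.947, with chromosome III earliest (19.3 and 22.8 min) and chromosome IV latest (23.9 and 26.5 min). Between the *SSDDCS* strain and the *sml1∆* strain of the same deletions rho was 0.0206 for *ars1008∆ ars1009∆* and 0.265 for *ars816∆ ars818∆*. The medians of the 16 chromosomes were also closer together, with an SD of 0.512 and 0.527 min in the *SSDDCS* strains and 1.22 and 0.938 min in the *sml1∆* strains. Chromosomes whose bins lay farther from an annotated origin tended to have later medians, with rho of 0.541 and 0.791 in the *SSDDCS* strains and 0.382 and 0.462 in the *sml1∆* strains. The median distance was 5.93 kb on chromosome VI, 6.33 kb on chromosome I, 12.7 kb on chromosome VII and, the longest, 15.8 kb on chromosome XV, which ranked 6 and 11.

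**Figure D2:**
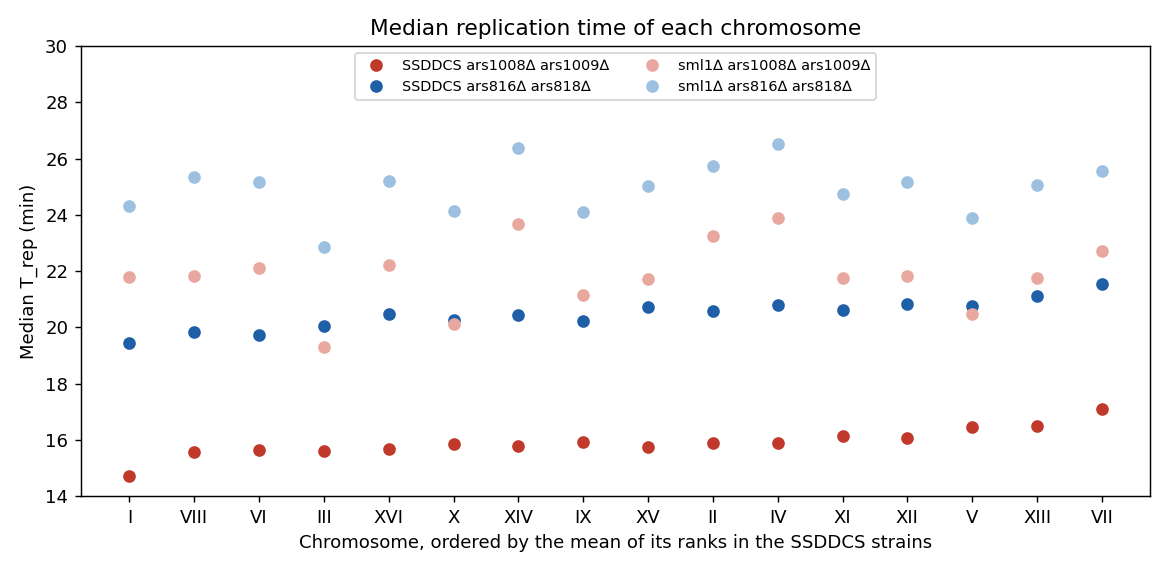
Median *T*_rep_ (min) over the bins of each chromosome outside the target regions, ordered from left to right by the mean rank in the *SSDDCS* strains, 1 point per chromosome and strain. Chromosome I (14.7 and 19.5 min) is earliest and chromosome VII (17.1 and 21.5 min) latest in both *SSDDCS* strains, while the *sml1∆* points follow another order.

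Among origins, the timing programme was compressed in both profiles. Over 307 annotated origins with at least 3 bins, *T*_rep_ had an SD of 1.65 min in the *ars1008∆ ars1009∆* strain and 1.58 min in the *ars816∆ ars818∆* strain, against 3.77 and 2.81 min in the *sml1∆* strains with the same deletions. The late origins ARS522 and ARS603 illustrate this. ARS522 replicated at 13.0 ± 0.438 min (SD, 4 bins) and 16.7 ± 1.47 min in the *SSDDCS* strains, and at 22.5 and 24.3 min in the *sml1∆* strains. ARS603 replicated at 12.2 and 17.5 min with *SSDDCS* and at 24.1 and 25.4 min without it. The early origins ARS305 and ARS306 replicated at 11.1 and 16 min and at 12.9 ± 1.21 and 16.5 ± 1.22 min, so that both late origins were later than ARS305 and within 1 SD over bins of ARS306. ARS607, the early origin of chromosome VI, replicated at 14.1 and 16.9 min, and ARS1 of chromosome IV at 12.4 and 19.4 min. The subtelomeric ARS609 remained the latest of the 3 late origins, at 15.0 and 18.7 min, with 28.8 and 29.4 min in the *sml1∆* strains.

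The order of single origins was partly shared. Spearman's rho over the 307 origins was 0.587, against 0.871 over 306 origins in the *sml1∆* pair. Of the 61 earliest origins in each strain, 18 were in both lists (29.5% of each), whereas 42 of the 62 latest were in both (67.7%). The lists hold 61 or 62 of the 307 origins, and lists from unrelated orders would share about that fraction. The overlap of the early lists is nearer to it than that of the late lists. In 3 cases one of the 61 earliest origins of one strain was among the 62 latest of the other. Within chromosomes, rho ranged from 0.130 on chromosome VI to 0.906 on chromosome III, with a median of 0.619.

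The earliest origin was the same in both strains on 4 chromosomes. These were ARS305 on chromosome III, ARS603.5 on chromosome VI (11.2 and 16.2 min), ARS1116 on chromosome XI and ARS1528 on chromosome XV (11.4 and 16.7 min). On the other chromosomes the earliest origin was, for *ars1008∆ ars1009∆* and *ars816∆ ars818∆* in turn, ARS105 and ARS107 (I), ARS216 and ARS230 (II), ARS404 and ARS418 (IV), ARS507 and ARS516 (V), ARS727 and ARS720 (VII), ARS822 and ARS801 (VIII), ARS923 and ARS922 (IX), ARS1018 and ARS1005 (X), ARS1216 and ARS1218 (XII), ARS1332 and ARS1310 (XIII), ARS1415 and ARS1422 (XIV), and ARS1635 and ARS1619 (XVI). The earliest in all was ARS216 at 9.76 min in the *ars1008∆ ars1009∆* strain and ARS1005 at 15.7 min in the *ars816∆ ars818∆* strain. The latest origin was the same on 7 chromosomes, namely ARS103 (I), ARS409.5 (IV), ARS513 (V), ARS814 (VIII), ARS1017 (X), ARS1126 (XI) and ARS1221 (XII). ARS513 was the latest of all in the *ars816∆ ars818∆* strain at 25.5 min, with 18.9 min in the *ars1008∆ ars1009∆* strain, where ARS712 on chromosome VII was latest at 19.0 min. After the scaling to the last samples described below, ARS216, ARS1005, ARS513 and ARS712 were no longer the extremes. They then had 11.6, 16.8, 22.3 and 16.2 min in these strains. Differences between the origins named here were not tested. The remaining chromosomes had ARS217 and ARS212 (II), ARS320 and ARS302 (III), ARS603.1 and ARS604 (VI), ARS712 and ARS701 (VII), ARS918 and ARS910 (IX), ARS1317 and ARS1305 (XIII), ARS1409 and ARS1410 (XIV), ARS1518 and ARS1521 (XV), and ARS1603 and ARS1617 (XVI). The annotation lists ARS416 as ARS1.

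**Figure D3:**
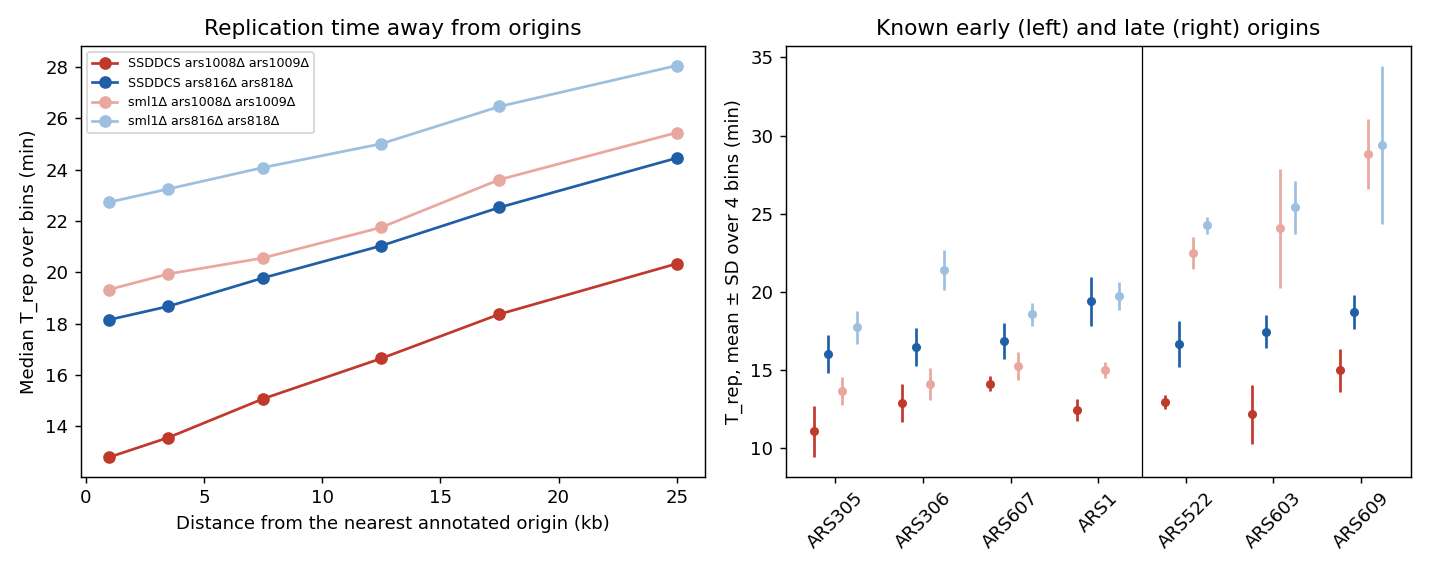
Left, median *T*_rep_ (min) of bins in 6 classes of distance from the nearest annotated origin (kb), in the 4 strains. Right, *T*_rep_ (mean ± SD over 4 bins) of known early and late origins, where ARS522 and ARS603 lie at 13.0 and 12.2 min in the *SSDDCS* *ars1008∆ ars1009∆* strain and at 22.5 and 24.1 min in the *sml1∆* strain.

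Both profiles became later with distance from origins. Bins under 2 kb from an annotated origin had a median *T*_rep_ of 12.8 and 18.1 min, and bins at 20 to 30 kb had 20.3 and 24.5 min. In the *sml1∆* strains the same classes ran from 19.3 to 25.4 min and from 22.7 to 28.1 min. Centred on its median over the genome, the *T*_rep_ difference of the *SSDDCS* strains went from -0.559 min near origins to 0.492 min at 20 to 30 kb, so that the *ars1008∆ ars1009∆* profile was the steeper one. Called on averages over 11 bins, the *ars1008∆ ars1009∆* profile had 202 peaks (local minima of *T*_rep_) and the *ars816∆ ars818∆* profile 191, and 170 of each lay within 5 kb of a peak of the other (84.2% and 89.0%). Of these peaks, 89.6% and 88.5% lay within 5 kb of an annotated origin, as did 26.1% of all bins. Of the troughs, which mark termination zones, 157 of 199 and 157 of 191 were shared, and 1 and 2 lay within 5 kb of an origin. To keep the choice of peaks apart from the values, the slope in each strain was measured around the peaks of the other. *T*_rep_ rose by 0.325 min per kb (SD over 16 chromosomes 0.0511) from 2 to 12 kb in the *ars1008∆ ars1009∆* strain and by 0.248 min per kb (SD 0.0442) in the *ars816∆ ars818∆* strain.

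Centromeres were compared as a group, because the kinetochore recruits DDK to nearby origins and centromeres are among the first sites copied in normal cells. Within 5 kb of the 16 centromeres *T*_rep_ ranged from 13.9 to 18.9 min with a median of 15.5 min in the *ars1008∆ ars1009∆* strain, and from 18.3 to 21.5 min with a median of 20.2 min in the *ars816∆ ars818∆* strain. The order was shared (rho 0.891 over the 16), with the centromere of chromosome VI latest in both, and the earliest on chromosome XIII in the *ars1008∆ ars1009∆* strain and XII in the *ars816∆ ars818∆* strain. Centromeres were close to the genome median in both, and the quotient of bins within 10 kb of centromeres over bins within 50 kb of chromosome ends stayed between 0.983 and 1.01 in the *ars1008∆ ars1009∆* culture and between 0.970 and 1.01 in the *ars816∆ ars818∆* culture at all timepoints. In the *sml1∆* cultures it reached 1.28 and 1.2.

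Where the profiles part was examined bin by bin. The centred difference below is *T*_rep_ in the *ars1008∆ ars1009∆* strain minus that in the *ars816∆ ars818∆* strain, less the genome-wide median of -4.65 min, so a positive value is a relative delay in the *ars1008∆ ars1009∆* strain. Of 10987 bins, 1545 were later by 3 min or more (14.1%) and 1323 earlier by 3 min or more (12%). Single bins had an SD of 2.80 min, and bins 1 and 10 kb apart correlated with r = 0.0403 and 0.0140, so that little of this difference was shared by neighbours. Over 11 bins the SD was 1.01 min, above the 0.844 min that uncorrelated bins would leave. The *T*_rep_ of single bins correlated between the strains with r = 0.729, from 0.551 on chromosome III to 0.780 on chromosome X, and the 11-bin averages with r = 0.956, near the 0.952 of the *sml1∆* pair. No chromosome as a whole parted by more than 0.537 min (VI), and the lowest was -0.219 min (II).

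Of 10968 averages over 11 bins, 59 were later by 3 min or more (0.538%) and 8 were earlier (0.0729%). Runs of at least 5 such bins formed 3 stretches that were later in the *ars1008∆ ars1009∆* strain and 0 that were earlier. The first, chrXV:249001-255000 (6 bins), holds *NGL1*, *NOP12*, which has a role in RNA processing, and *RPS15*, a gene of the small ribosomal subunit. Its centred difference was 3.47 ± 2.82 min (SD over bins). The second, chrXVI:722001-731000 (9 bins), holds *LEC1*, *TMH18* and *MRPL51*, which encodes a mitochondrial ribosomal protein, and had 4.81 ± 4.98 min. The third, chrXVI:901001-907000 (6 bins), holds *GDB1*, the glycogen debranching enzyme, and *DPM1*, dolichol phosphate mannose synthase, and had 5.54 ± 3.5 min. None of the 3 holds an annotated origin, and the nearest lies 25.7, 22.7 and 23.0 kb from their middle (ARS1511, ARS1626 and ARS1630). All were later than the genome median, at 22.4, 24.7 and 23.1 min where ARS1008 and ARS1009 were deleted and 23.6, 24.5 and 22.2 min in the other strain. Without *SSDDCS* the same bins had centred differences of 1.98, -0.473 and -0.321 min.

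**Figure D4:**
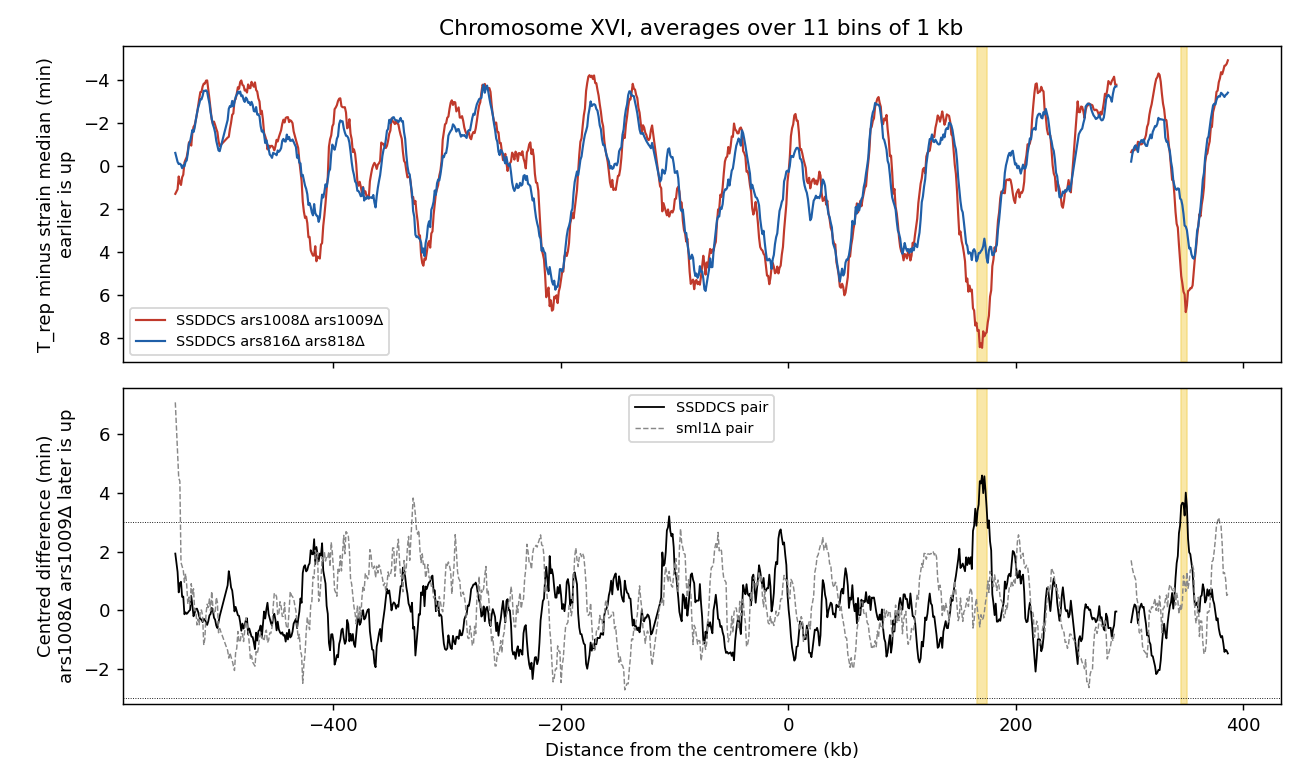
Chromosome XVI, with distance from the centromere (kb) on the x axis. Above, 11-bin averages of *T*_rep_ less the median of each *SSDDCS* strain (min, early at the top). Below, their centred difference (min) in the *SSDDCS* pair (solid) and the *sml1∆* pair (dashed), with the 3 min limits dotted and the stretches shaded, where the solid curve reaches 4.60 and 4.02 min.

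The ratios by timepoint were read in each stretch. On chromosome XV the level relative to the genome median fell to 0.814 in the *ars1008∆ ars1009∆* strain and 0.836 in the *ars816∆ ars818∆* strain at 20 min. In the *LEC1* stretch its lowest values were 0.774 at 20 min in the *ars1008∆ ars1009∆* strain and 0.838 at 25 min in the *ars816∆ ars818∆* strain, and in the *GDB1* stretch 0.790 and 0.910, both at 20 min. At 5 min, when the quotient of early over late sites was 1.00 and 0.995, the 3 stretches had levels of 0.970, 0.990 and 0.984 in the *ars1008∆ ars1009∆* strain and 1.01, 1.04 and 1.06 in the *ars816∆ ars818∆* strain. At 45 to 60 min, when the quotient was at most 1.02, they had 0.964, 0.969 and 0.989 against 1.01, 1.03 and 1.04. The levels in the *ars816∆ ars818∆* strain were thus the higher ones at both ends of the time course.

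**Figure D5:**
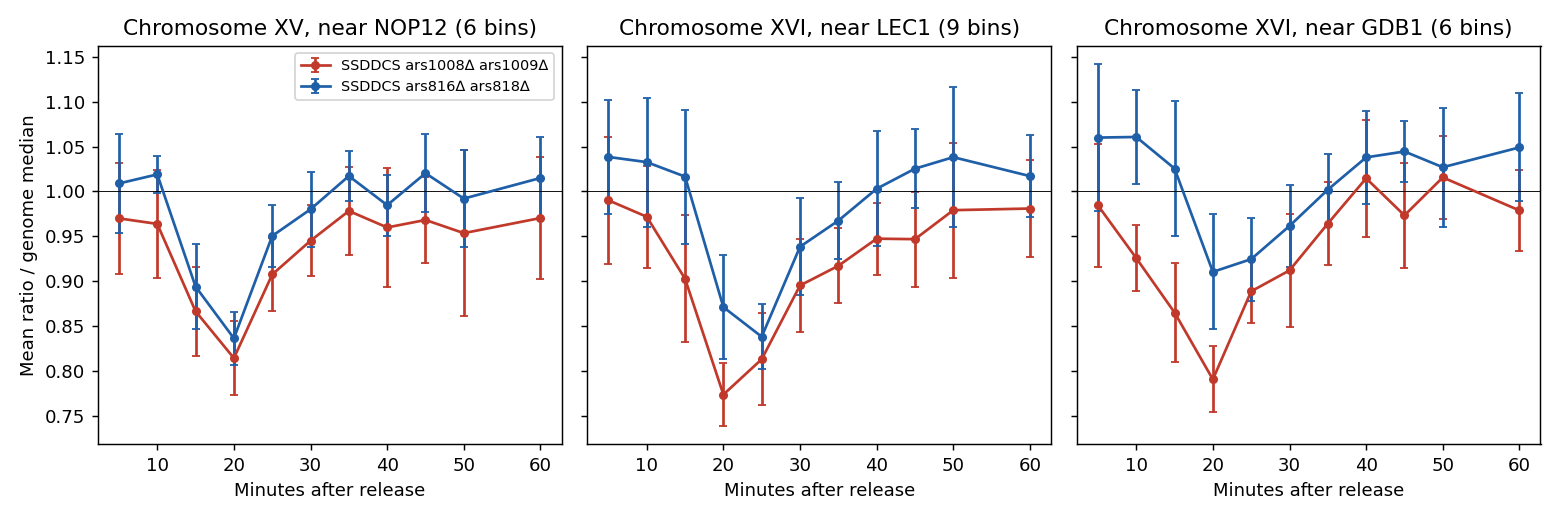
Mean ratio of the 3 stretches divided by the genome median of the same sample, against minutes after release, in the *SSDDCS* strains (error bars, SD over the 6, 9 and 6 bins divided by the genome median). The levels at 5 min are 0.970, 0.990 and 0.984 in the *ars1008∆ ars1009∆* strain and 1.01, 1.04 and 1.06 in the *ars816∆ ars818∆* strain.

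To compare bins at an equal final level, the ratios of each bin were divided by its mean level relative to the genome median at 45, 50 and 60 min in the same strain. This step was chosen after seeing the data, and it also raises bins that were not fully copied by 45 min. It left 0 stretches in either direction, and the 3 differences became 0.407, 0.839 and 2.59 min. The shares of single bins 3 min apart fell to 6.85% later and 5.96% earlier, the SD of single bins to 1.99 min and that of the 11-bin averages to 0.748 min. Agreement rose at the same time, with r = 0.807 over bins, rho = 0.926 over chromosomes and rho = 0.705 over 306 origins. The median difference in pace was -4.61 min, and the slope was 0.333 min per kb in the *ars1008∆ ars1009∆* strain and 0.259 in the *ars816∆ ars818∆* strain.

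The number of stretches also varied with the timepoints used. Leaving out 1 timepoint of both strains gave 2 to 8 later and 0 to 5 earlier stretches, and the count of later ones was 5 without 5 min, 5 without 10 min, 6 without 15 min, 6 without 25 min, 6 without 30 min and 8 without 35 min. Earlier stretches were called without 5 min (5) and without 30 min (1). The *LEC1* stretch was called in all 11 of these fits, the chromosome XV stretch in 10 and the *GDB1* stretch in 9. Of 13 other settings, the *LEC1* stretch was called in 10 and lost without centring, at a limit of 5 min and after scaling to the last samples. The chromosome XV stretch was called in 7 and lost, beside these, with a free upper asymptote, the linear map and 21-bin averages. The *GDB1* stretch was called in 6 and lost in those and with the first crossing of 1.5. With a limit of 2 min there were 34 later and 7 earlier stretches, beside 3.91% and 1.38% of the averages past that limit. The later ones held 0 annotated origins and 5 of the 7 earlier ones held an origin. The median of the later ones was at percentile 89.8 of *T*_rep_ in the *ars1008∆ ars1009∆* strain, in which their choice favours late bins, and at percentile 79.1 in the *ars816∆ ars818∆* strain. That of the earlier ones was at percentiles 18.8 and 47.5, as their choice favours early bins of the *ars1008∆ ars1009∆* strain, which lie near origins. The share of all stretches of such length that hold an origin was not computed, so the counts of origins are descriptions. Among the earlier ones were chrXV:725001-735000 with ARS1521 (-3.77 min) and chrIV:743001-754000 with ARS451 and ARS423 (-2.84 min). The 11-bin differences of the *SSDDCS* pair correlated with those of the *sml1∆* pair with r = 0.107.

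Origins were compared over 4 bins each. Of the 307 origins, 9 were earlier by 3 min or more in the *ars1008∆ ars1009∆* strain (2.93%) and 0 were later (0.00%), and over 5214 named genes outside the excluded regions, in windows of the same width, the shares were 1.71% and 3.53%. At 2 min or more, 38 origins were earlier (12.4%) and 8 later (2.61%), and the shares of genes were 7.42% and 11.2%. The differences ran from -5.16 min at ARS1521 to 2.91 min, with a median of -0.645 min. ARS1521 replicated at 11.8 and 21.7 min. After scaling to the last samples, 0 of 306 differed by 3 min in either direction, and the differences lay between -2.80 and 1.94 min.

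The genes of the over-expressed factors were read in the bins of their own loci. Both strains carry further copies of these genes in the constructs at *leu2*, *his3* and *trp1*. Reads of the copies may fall in the same bins, so the times can mix both places, which was not tested. *DPB11*, which bridges Sld2 and Sld3, lies in the excluded region of chromosome X. *SLD7* was early in both, at 12.9 min in the *ars1008∆ ars1009∆* strain and 17.8 min in the *ars816∆ ars818∆* strain. *DBF4* had 12.8 and 19.8 min, at percentiles 16.2 and 39.0 of *T*_rep_, and was early only in the *ars1008∆ ars1009∆* strain. *CDC45*, the helicase subunit, lay near the median at 15.0 and 20.0 min, and *SLD3* (18.1 and 22.7 min) and *SLD2* (19.2 and 23.7 min) were late in both. The centred differences of these 5 loci ran from -2.30 min at *DBF4* to 0.165 min at *SLD2*. Of the loci used for integration and marking, *LEU2* had -3.42 ± 3.33 min (SD over 3 bins), *SML1* had 3.35 ± 1.88 min (4 bins), and *HIS3* and *TRP1* had -0.855 and -1.61 min. Beside these stand the 3.53% later and 1.71% earlier of all named genes. After scaling to the last samples the values of *LEU2* and *SML1* were 1.7 and 0.427 min.

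The 8 core histone genes, which are expressed in S-phase, kept nearly the same order (rho = 0.976). *HTB1* and *HTA1* were early, at 11.3 and 11.6 min in the *ars1008∆ ars1009∆* strain and 16.8 and 17.3 min in the *ars816∆ ars818∆* strain. *HTB2* and *HTA2* followed at 12.7 and 13.9 min against 19.1 and 19.2 min. *HHF1* and *HHT1* had 13.1 and 16.5 min against 20.0 and 20.2 min. *HHT2* and *HHF2* were the latest, at 21.4 and 22.6 min against 24.1 and 24.3 min. Each gene pair shares bins, and 0 of the 8 genes differed by 3 min in either direction, beside 3.53% later and 1.71% earlier of 5214 named genes.

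Of the 28 replication genes listed, 27 lay outside the excluded regions (*ORC6*, a subunit of the origin recognition complex, lay within). Of the 27, 2 were later and 1 earlier by 3 min or more, beside 3.53% later and 1.71% earlier of 5214 named genes. Counts this small were not tested against those shares. *POL2*, the leading strand polymerase, replicated at 22.8 and 23.0 min, a centred difference of 4.51 ± 2.20 min. *TAH11*, the yeast Cdt1 that loads Mcm2-7, had 20.3 and 21.7 min (3.29 ± 1.53 min). *ORC2* had 20.2 and 28.2 min (-3.34 ± 4.60 min). All 3 were later than the genome median in both strains, and after scaling to the last samples they had 2.52, -1.47 and 0.801 min. *CDC6*, the licensing factor, was among the earliest in both strains (11.7 and 16.7 min). *FKH2*, one of the forkhead factors that set early origins, was at percentile 6.23 of *T*_rep_ in the *ars1008∆ ars1009∆* strain (11.5 min) and 21.7 in the *ars816∆ ars818∆* strain (18.5 min), and *POL3*, the lagging strand polymerase, was late in both (22.2 and 26.8 min). The order of the 27 genes was shared with rho = 0.911.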

How the data were processed

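Members and lists were chosen with earlier results of these data known. The authors mapped reads to sacCer3 and deposited, per 1-kb bin, the ratio of reads at a timepoint to G1 reads of the same strain times a flow cytometry bulk value, itself deposited as a second ratio. The submitters' processing notes name Bowtie2 2.3.4, SAMtools 1.7.2 and bedtools 2.26.0. A wrong bulk value would shift all bins of a sample, and noise in the G1 sample would shift a bin in all 11 samples. Logistic curves with asymptotes 1 and 2 were fitted by least squares to bins with at least 6 values (Python 3.11.15, numpy 2.4.6, pandas 2.3.3, scipy 1.17.1, matplotlib 3.10.9), and *T*_rep_ was kept from 0 to 60 min. Peaks needed a prominence of 2 min. Loci are means of bins within 2 kb of the midpoint. The code was tested on simulated data. Genes named are the over-expressed factors, marker loci, histone and replication genes, and up to 3 genes nearest the middle of each stretch. Origins named are the extremes of each chromosome, known early and late origins and those at the loci shown. Stretches were limited to the 6 largest per direction, and the 2 examples at the 2 min limit were chosen after their values were seen. Alternatives were other curve fits, bulk values, averages, limits and sets of timepoints. The scaling to the last samples and the slope around the other strain's peaks were chosen after seeing the data.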

Additional observations from a re-analysis of the deposited data

Results flagged for a closer look

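Differences between the deletions had opposite signs with and without *SSDDCS* in 4 results, and the difference between the pairs was not tested in any of them. The *LEC1* stretch of chromosome XVI had 4.81 min with *SSDDCS* and -0.473 ± 3.08 min (SD over bins) without, and the *GDB1* stretch had 5.54 and -0.321 ± 1.75 min, so that both values without *SSDDCS* were smaller than their spread. Scaled to the last samples, the stretches had 0.839 and 2.59 min with *SSDDCS*. The median over chromosome III was 0.364 and -0.695 min, and that over chromosome VI 0.537 and -0.261 min. With each bin scaled to its level in the last samples, chromosome III had 0.167 and -0.914 min and chromosome VI 0.218 and -0.454 min. The sign was opposite on 8 of the 16 chromosomes, and these 2 were those where both values reached 0.25 min.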

How the results depend on the processing

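No paired analysis was possible because replicate 1 is the only number the strains have in common. Estimated bulk values gave a median *T*_rep_ difference of -0.943 min, 5 later stretches and 16.8% of bins later. The first crossing of 1.5 gave -4.12 min, r = 0.824 over bins, 77.1% of peaks matched, 10 later and 5 earlier stretches and 11.9% of bins later. A free upper asymptote gave r = 0.818 and 9.63% of bins later and 7.45% earlier. Scaling to the last samples gave a 10th to 90th percentile span of 8.75 min in the *ars1008∆ ars1009∆* strain (10.2 min unscaled, outside the excluded regions), r = 0.807, 0 later stretches and 6.85% and 5.96% of bins. Without centring there were 0 later and 192 earlier stretches, 0.728% and 72.9% of bins, and -1.18 min at the chromosome XV stretch. A linear map of one strain to the median and SD of the other left 1 later and 2 earlier stretches. Excluding only 40 kb on either side of *IME2* and *NDT80* gave 1 earlier stretch. Averages over 5 bins gave 13 later and 2 earlier stretches, and over 21 bins 1 later. A limit of 2 min gave 34 and 7 stretches and 23.4% and 20.9% of bins, and of 5 min 0 later stretches and 4.31% and 3.20% of bins. Averages over 5 and 21 bins for peaks left 64.1% and 71.4% matched. The rank correlation of chromosomes was 0.344 over origins only, with those in the excluded regions included. With centromeres against chromosome ends, which did not separate, the lag was 0 min and the maxima fell at 40 and 35 min.

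Leaving out 1 timepoint gave ranges of -4.84 to -4.43 min for the median difference, 9.90 to 10.7 and 8.71 to 9.09 min for the spans, 0.712 to 0.909 for chromosome order, 0.655 to 0.755 for r over bins, 193 to 209 and 175 to 199 peaks, 76.2% to 84.2% matched, 2 to 8 later and 0 to 5 earlier stretches, 13.3% to 16.8% and 11.4% to 15.2% of bins, 0.0818 to 0.152 for r with the *sml1∆* pair, 2.20 to 2.60 min for the lag, and maxima at 20 to 25 min in both cultures. Removal of the GC trend and the limit on residuals moved none of these results by more than their spread. Depth is unknown, so counting error was not estimated, and a difference of single bins is of the size of the noise between neighbours.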

Other observations

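Bins absent from every file of one *SSDDCS* strain and present in the other were listed. One, chrX:204001-205000 with ARS1008, was absent from the *ars1008∆ ars1009∆* strain and in all 11 files of the other. In the *ars816∆ ars818∆* strain 7 bins were absent, outside its deleted region. Of these, chrIV:1243001-1244000 with *EFT2*, the translation elongation factor gene, was in 11 files of the *ars1008∆ ars1009∆* strain and in 0 files of either *sml1∆* strain. The bin of *THI13* and *AAD4* (chrIV:17001-18000) was in 9 and 0 files likewise. The bins of *COS4* (VI), *DDR48* (XIII), YDR210C-D (IV), YOR387C (XV) and ARS824 (VIII) were in 10, 10, 10, 5 and 8 files of the *ars1008∆ ars1009∆* strain and in some files of at least 1 *sml1∆* strain.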
